A study of Mus musculus with 6 samples.

Results

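Respiratory complexes II to V are the succinate dehydrogenase, the cytochrome bc1 complex, cytochrome c oxidase and ATP synthase of the inner mitochondrial membrane. Their nuclear-encoded subunits were taken as every gene whose symbol was Sdha to Sdhd or Cyc1, or began with Uqcr, with Cox4 to Cox8 or with Atp5. The choice used symbols only and no measured value as a criterion, but it was made with earlier results of these data known. This gave 41 of the 6532 genes measured: 4 of complex II, 9 of complex III, 11 of complex IV, 15 of complex V and 2 that carry such a name without being subunits. The latter are Cox4nb (Emc8), a protein of the ER membrane complex, and Atp5sl (Dmac2), an assembly factor of complex I. Cox7a2l, a factor that joins complexes III and IV, is counted here among the 11 of complex IV. All 41 passed the read floor, with 249 to 48959 coding reads in any library.

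Messenger RNA and ribosome-protected fragments (RPF, footprints) were sequenced from wild-type E14 cells, an established mouse embryonic stem cell line kept on gelatin with serum and LIF. The siCtrl cells received a pool of non-targeting siRNAs and the siPKM cells a pool against PKM, the pyruvate kinase of glycolysis, each at 20 nM for 36 h, with a passage 16 h before harvest. Both were given cycloheximide at 100 µg/ml for 2 min, and footprints were cut with RNase A and RNase T1. A further pair of iCLIP libraries came from E14 cells with PKM2 tagged by FLAG and HA (labelled PKM2_FLAG_HA), crosslinked by UV at 0.35 J per cm2. There was 1 RNA and 1 RPF library in each siRNA group, so no difference between siPKM and siCtrl has a replicate check and no test was possible.

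Complex II oxidises succinate and hands the electrons to ubiquinone, complex III passes them from ubiquinol to cytochrome c, and complex IV passes them to oxygen. Complexes III and IV pump protons, and complex V lets protons flow back through a rotor to make ATP. Apart from those of complex II, these enzymes mix nuclear-encoded with mitochondrially encoded subunits, and many of the nuclear-encoded ones are very short proteins. Pyruvate, the product of pyruvate kinase, is a main source of electrons for this chain, although pluripotent stem cells also draw on glycolysis.

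The libraries held 10349212 to 15175242 coding sequence (CDS) reads, counted without the first 15 and last 5 codons, and the CLIP replicates 677534 and 670508 reverse transcription stops. Pkm (listed as Pkm2), the siRNA's target, had 5024 CPM (CDS reads scaled by the library's total to the usual CPM unit) in siCtrl RNA and 1582 in siPKM RNA. Of 11 stem cell markers 10 were measured, and they summed to 4997 CPM in siCtrl and 4889 in siPKM RNA, and to 6306 and 6005 among footprints. Single stem cell markers differed in both directions, with log2 ratios from -0.38 for Lin28a to 0.55 for Esrrb in RNA and from -0.44 for Zfp42 to 0.35 for Esrrb among footprints. Of the fibroblast markers only Vim, 1 of 5, was in the table, at 229 and 304 CPM in RNA and 394 and 536 among footprints. Of 4 trophoblast markers 3 were measured, and they did not share a direction. Krt8 was at 22.1 CPM in siCtrl and 34.3 in siPKM RNA and at 22.5 and 41.8 among footprints, Krt18 at 17.8 and 23.8 and at 20.5 and 26.0, but Tcfap2c at 37.6 and 25.5 and at 53.5 and 32.0. Cubn, 1 of 4 markers of primitive endoderm, stood at 15.1 and 16.4. Whether these shifts play a part in the results was not tested.

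Promoters were looked at because members of one pathway can share regulatory letters, a property that the choice of genes did not use. RefSeq windows of GRCm38.p6, from 250 bases before to 50 bases after each start, were at hand for 32 of the 41 members (36 windows). NRF-1 and factors of the ETS family are known regulators of respiratory genes. The NRF-1 letters GCGCATGCG, on either strand, occurred in 6 of 36 member windows (16.7%), against 4.71% of the 6625 windows of the genes in the table and 1.75% of all 32851 windows. The ETS letters CCGGAAG were in 33.3% of member windows, 21.8% of the table's and 8.86% of all. YY1 letters, AAGATGGCG, were in 11.1%, 4.18% and 1.40%, but 2 of the 4 member windows are those of Atp5sl, no subunit, and the others those of Atp5j and Atp5j2. The SP1 letters GGGCGG went the other way, at 30.6% of member windows, 67.2% and 35.7%, and TATAAA was in 2.78%, 6.49% and 13.6%. No matches of different motifs overlapped in a member window. A match describes letters and shows no binding.

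An NRF-1 match that lies wholly before the start is shown here for each of 4 members, 5′ to 3′ on the gene's strand, with its letters in capitals. In Atp5k, Cox6a1 and Atp5g2 the letters CGCATGCGC, the same motif on the other strand, overlap the match shown. That overlapping match takes in the lower-case letter right after the capitals. The window of Atp5l begins close to its match, so its left flank is short. The other 2 members with a match, Uqcr11 and Uqcrc1, have it across or after the start.
Atp5k, chr5:108434411-108434479, minus strand: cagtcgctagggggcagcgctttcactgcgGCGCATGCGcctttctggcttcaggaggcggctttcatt
Cox6a1, chr5:115349082-115349150, minus strand: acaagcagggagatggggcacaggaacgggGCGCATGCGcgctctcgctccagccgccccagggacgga
Atp5l, chr9:44920945-44920992, minus strand: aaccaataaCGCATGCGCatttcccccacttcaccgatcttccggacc
Atp5g2, chr15:102671051-102671119, minus strand: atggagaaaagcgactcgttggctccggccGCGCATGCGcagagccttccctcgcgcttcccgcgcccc
These 6 genes did not share a direction in RNA. The log2 ratio of siPKM over siCtrl, relative to the median gene, was -0.33 for Atp5k, -0.44 for Atp5l, -0.42 for Uqcr11, -0.16 for Atp5g2 and -0.09 for Uqcrc1, but 0.28 for Cox6a1.

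The respiratory genes differed little between siPKM and siCtrl. Their medians lay on opposite sides of 0 in message and in footprints per message, measures that share the RNA reads. All values are log2 ratios of CDS reads of siPKM over siCtrl, relative to the median of all genes. In RNA the members' median was -0.09, and 30 of 41 lay below 0, from -0.48 for Uqcrh to 0.32 for Sdhb. Among RPF the median was 0.03, with 25 of 41 above 0, from -0.38 for Atp5l to 0.32 for Sdhb. Translation efficiency (TE), the footprint ratio minus the RNA ratio, had a median of 0.08 and was above 0 for 29 of 41, from -0.19 for Atp5d to 0.52 for Uqcr10. The median of all 6532 genes is 0 in each by construction. In bulk libraries, fewer cells of a type and less RNA per cell cannot be told apart.

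No member was 1.5-fold apart in any of these measures. Over all genes, 2.88% were at least 1.5-fold higher and 1.24% at least 1.5-fold lower in siPKM RNA. The shares were 2.66% and 1.53% among footprints, and 0.184% and 0.827% in TE. With 41 members, a count of 0 is close to these background shares.

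Signs were combined to follow message and footprints of the same gene. RNA was below 0 and TE above 0 for 24 members (58.5%), against 32.0% of all genes. RNA was below 0 while footprints were above 0 for 14 members (34.1%), against 12.8% of all genes, and the reverse, RNA above and footprints below 0, held for 0 members, against 12.8%. Lower RNA with higher footprints was not particular to the members. Genes named for complex I subunits, such as Ndufb6 and Ndufc2, showed it too, while Ndufa3 showed the reverse. The shares among complex I genes are not given here. RNA and footprints were both below 0 for 16 members and both above for 11. TE contains the RNA ratio with its sign turned, so RNA and TE share 2 libraries and opposite signs arise in part by construction. The count of 24 also follows in part from most members lying below 0 in RNA and above 0 in TE. All sign counts include values close to 0, such as 0.004 in footprints for Atp5a1. The correlation of RNA and TE is likewise given only as a description. Pearson's r was -0.52 and Spearman's rho -0.46 over the 41 members, and -0.37 and -0.38 over all 6532 genes.

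**Figure D1:**
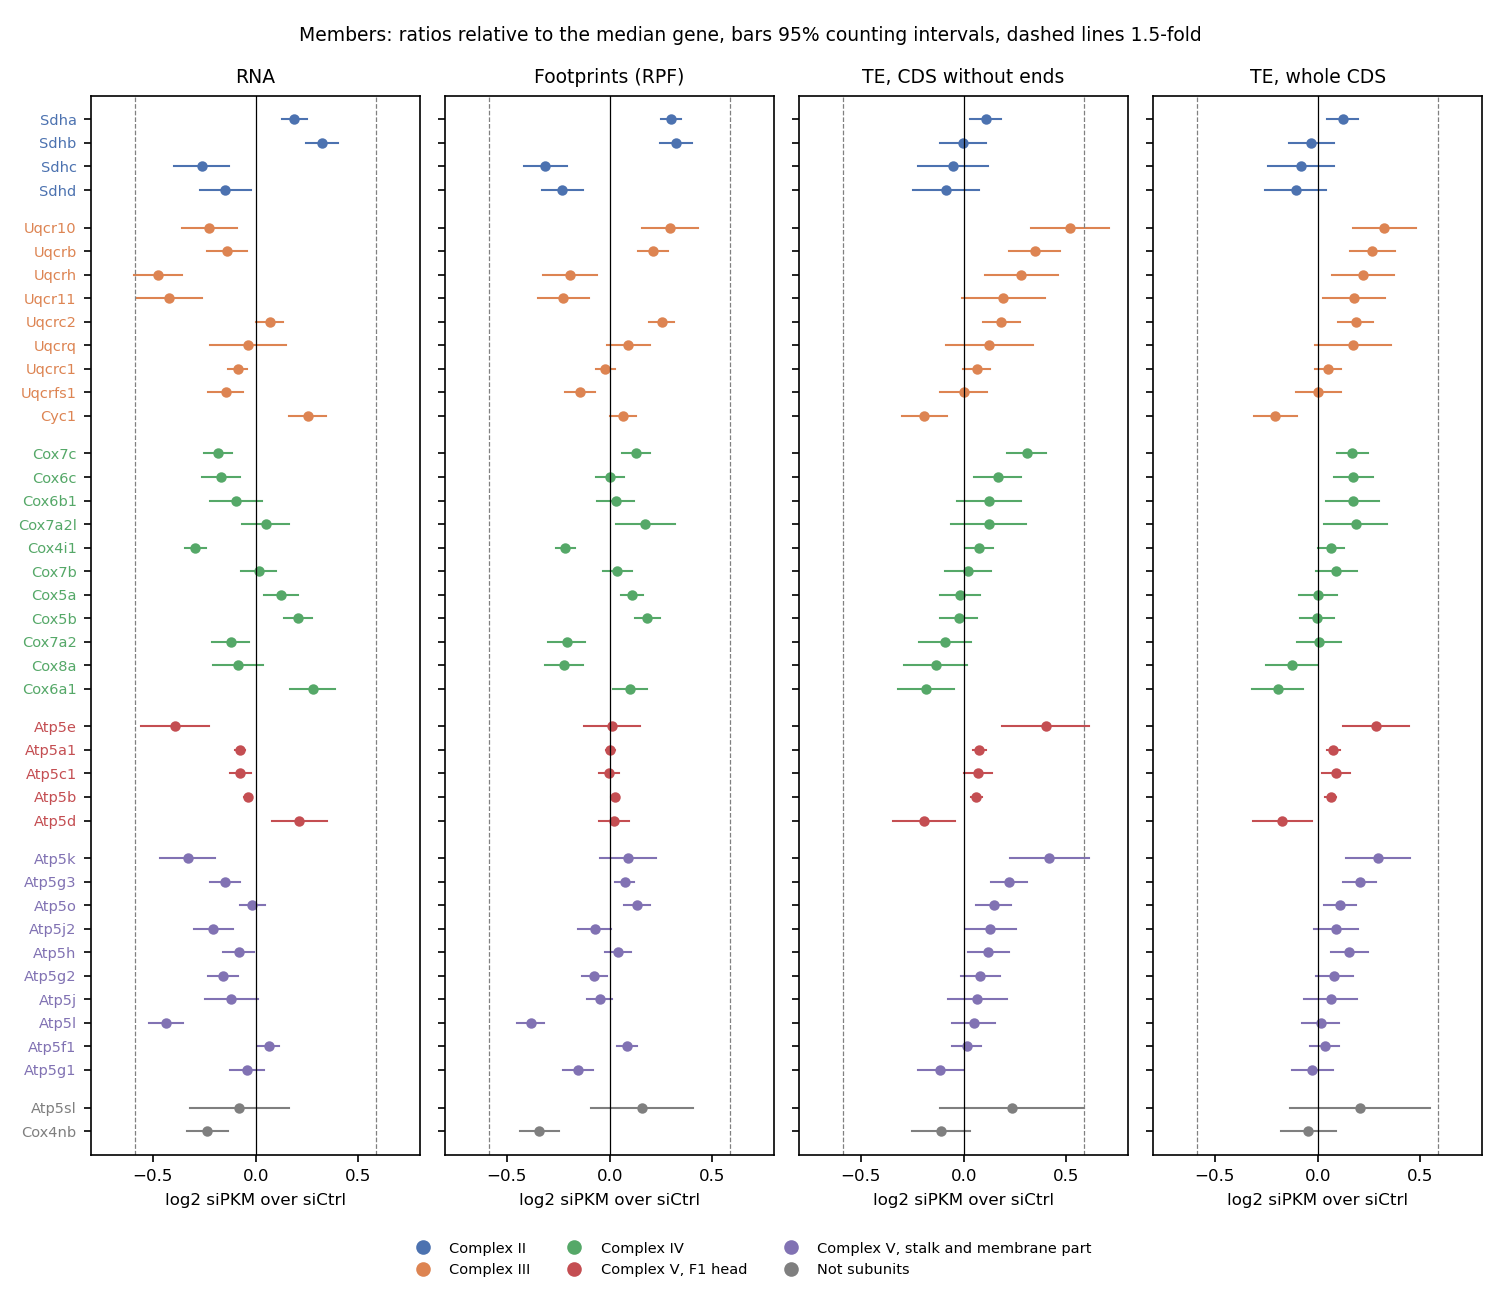
Log2 ratios of siPKM over siCtrl for the 41 members (rows, coloured by complex) in RNA, in footprints, in TE without the CDS ends and in TE over the whole CDS. Points are single-library ratios relative to the median gene, bars are 95% intervals from the read counts and dashed lines mark 1.5-fold. No point passes a dashed line; 30 of 41 lie left of 0 in RNA and 29 of 41 lie right of it in TE.

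Complex II parted into a higher and a lower pair. Sdha, the flavoprotein that oxidises succinate, had 376 CPM in siCtrl RNA and 443 in siPKM RNA, and 459.9 and 574 among footprints. Sdhb, the iron-sulphur subunit that takes up its electrons, had 201 CPM in siCtrl RNA and 260.3 in siPKM RNA, and 165 and 209 among footprints. Both were higher in the siPKM library of each kind, with log2 ratios of 0.19 (0.13 to 0.25) in RNA and 0.30 (0.25 to 0.35) in footprints for Sdha, and of 0.32 (0.24 to 0.40) and 0.32 (0.24 to 0.40) for Sdhb. Here and below, brackets give 95% intervals from read counts, which cover counting error only. The membrane anchors stood on the other side. Sdhc had 85.9 CPM in siCtrl RNA and 74.0 in siPKM RNA, and 122 and 99.96 among footprints. Sdhd, its partner in the ubiquinone site, had 95.3 CPM in siCtrl RNA and 88.9 in siPKM RNA, and 125 and 108 among footprints. Their log2 ratios were -0.26 (-0.40 to -0.13) in RNA and -0.31 (-0.42 to -0.21) in footprints for Sdhc, and -0.15 (-0.27 to -0.02) and -0.23 (-0.33 to -0.13) for Sdhd. Footprints lay on the same side of 0 as the message in all 4, and TE ratios lay between -0.09 for Sdhd and 0.11 for Sdha.

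Complex III had the highest median TE ratio of the 4 complexes and the lowest median in RNA. The medians were 0.18 in TE and -0.14 in RNA, with 8 of 9 subunits above 0 in TE. Uqcr10, a small subunit next to cytochrome c1, had 86.0 CPM in siCtrl RNA and 75.9 in siPKM RNA, and 56.6 and 70.4 among footprints. Its message was thus lower in siPKM while its footprints were higher, giving log2 ratios of -0.23 (-0.36 to -0.09) and 0.29 (0.16 to 0.43) and a TE ratio of 0.52 (0.33 to 0.71), or 0.32 (0.17 to 0.48) with both CDS ends counted. Uqcrb, a small subunit chosen for mention after its values were seen, repeated the pattern with 152 CPM in siCtrl RNA and 143 in siPKM RNA, and 193 and 226 among footprints and a TE ratio of 0.35 (0.22 to 0.47).

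Uqcrh, the acidic hinge protein that helps cytochrome c dock, had the lowest RNA ratio of the members. It had 122 CPM in siCtrl RNA and 90.8 in siPKM RNA, and 73.1 and 65.0 among footprints. Both kinds of library were lower in siPKM, RNA more so, with -0.48 (-0.59 to -0.36) against -0.19 (-0.32 to -0.06), and TE stood at 0.28 (0.11 to 0.46). Cyc1, the cytochrome c1 that hands electrons to cytochrome c, was the exception of the complex. It had 167 CPM in siCtrl RNA and 205 in siPKM RNA, and 281 and 298 among footprints. Its RNA ratio of 0.25 (0.16 to 0.34) was not matched by footprints at 0.06 (0.00 to 0.13), and TE was -0.19 (-0.30 to -0.08). The core proteins Uqcrc1 and Uqcrc2 had TE ratios of 0.06 and 0.18, the small subunits Uqcr11 and Uqcrq 0.19 and 0.13, and the Rieske protein Uqcrfs1, which takes electrons from ubiquinol, stood at 0.00.

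Complex IV stayed near the median gene in TE. Its median was -0.09 in RNA, 0.04 in footprints and 0.02 in TE, with 6 of its 11 genes above 0 in TE. Cox7c, a small membrane-spanning subunit, had 323 CPM in siCtrl RNA and 294 in siPKM RNA, and 242 and 269 among footprints, and a TE ratio of 0.31 (0.21 to 0.40). With both CDS ends counted its TE ratio was 0.17 (0.09 to 0.25), and its RNA ratio was -0.08 in place of -0.18. Cox6a1, the subunit form of most tissues outside muscle, had 104 CPM in siCtrl RNA and 130.0 in siPKM RNA, and 164 and 178 among footprints. Its RNA ratio was 0.28 (0.17 to 0.39) and its TE ratio -0.18 (-0.32 to -0.04), so message and TE went opposite ways in Cox7c and Cox6a1 alike, with signs exchanged.

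Cox4i1, a subunit at which ATP is known to inhibit the enzyme, had the lowest RNA ratio of complex IV. It had 597 CPM in siCtrl RNA and 503 in siPKM RNA, and 582 and 508 among footprints, with log2 ratios of -0.29 (-0.35 to -0.24) in RNA and -0.22 (-0.26 to -0.17) in footprints. The matrix-side subunits Cox5a and Cox5b had RNA ratios of 0.12 and 0.21 and TE ratios of -0.02 and -0.02. The other 6 of complex IV, Cox6b1, Cox6c, Cox7a2, Cox7a2l, Cox7b and Cox8a, lay between -0.17 and 0.05 in RNA and between -0.14 and 0.16 in TE. The forms found in muscle, lung or testis (Cox4i2, Cox6a2, Cox6b2, Cox7a1, Cox7b2, Cox8b, Cox8c) are not analysed here.

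Complex V had a median of -0.08 in RNA, 0.01 in footprints and 0.08 in TE, and 13 of 15 subunits were above 0 in TE. The 5 genes of the F1 head had footprint ratios between 0.00 for Atp5c1 and 0.03 for Atp5b, although their RNA ratios ran from -0.39 to 0.21. Atp5b, the beta subunit with the catalytic sites, had 3875 CPM in siCtrl RNA and 3898 in siPKM RNA, and 3226 and 3336 among footprints. It was also the most precisely measured member, with a TE ratio of 0.06 (0.04 to 0.09). Atp5a1, the alpha subunit, had 2729.5 CPM in siCtrl RNA and 2675 in siPKM RNA, and 2163 and 2201 among footprints and a TE ratio of 0.08 (0.04 to 0.11). Reads of these 2 genes were thus nearly alike in siPKM and siCtrl.

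The foot of the rotor held the extremes of the head. Atp5d, the delta subunit, had 73.2 CPM in siCtrl RNA and 87.6 in siPKM RNA, and 211 and 217 among footprints. Its RNA ratio of 0.21 (0.08 to 0.35) with footprints at 0.02 (-0.05 to 0.10) gave the lowest TE ratio of the members, -0.19 (-0.34 to -0.04). With both CDS ends counted, Cyc1 was lowest instead, at -0.21, and Atp5d stood at -0.17. Atp5e, the epsilon subunit beside it, chosen for mention after its values were seen, had 59.9 CPM in siCtrl RNA and 47.2 in siPKM RNA, and 63.6 and 65.0 among footprints. Its RNA ratio was -0.39 (-0.56 to -0.23) and its TE ratio 0.40 (0.19 to 0.61), with footprints again near the median gene at 0.01.

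In the stalk and membrane part, 9 of 10 genes were below 0 in RNA and 9 of 10 above 0 in TE. Atp5k, the small membrane subunit e that helps ATP synthase pair into dimers, had 90.4 CPM in siCtrl RNA and 74.2 in siPKM RNA, and 59.9 and 64.6 among footprints. Its RNA ratio was -0.33 (-0.46 to -0.20) and its TE ratio 0.42 (0.23 to 0.61). Atp5l, subunit g and a neighbour of subunit e in the membrane, had 253 CPM in siCtrl RNA and 194 in siPKM RNA, and 311 and 242 among footprints. For Atp5l the footprints were lower together with the message, at -0.38 (-0.45 to -0.32) and -0.44 (-0.52 to -0.35), and TE was 0.05 (-0.06 to 0.15). So subunits e and g were both lower in siPKM RNA, and the interval of TE was above 0 for subunit e but included 0 for subunit g; the difference between them was not tested. The other 8, the peripheral stalk (Atp5f1, Atp5h, Atp5j, Atp5o), subunit f (Atp5j2) and subunit c (Atp5g1, Atp5g2, Atp5g3), lay between -0.21 and 0.06 in RNA and between -0.11 and 0.22 in TE. The 2 names that are no subunits, Cox4nb and Atp5sl, had RNA ratios of -0.23 and -0.08 and TE ratios of -0.11 and 0.23.

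**Figure D2:**
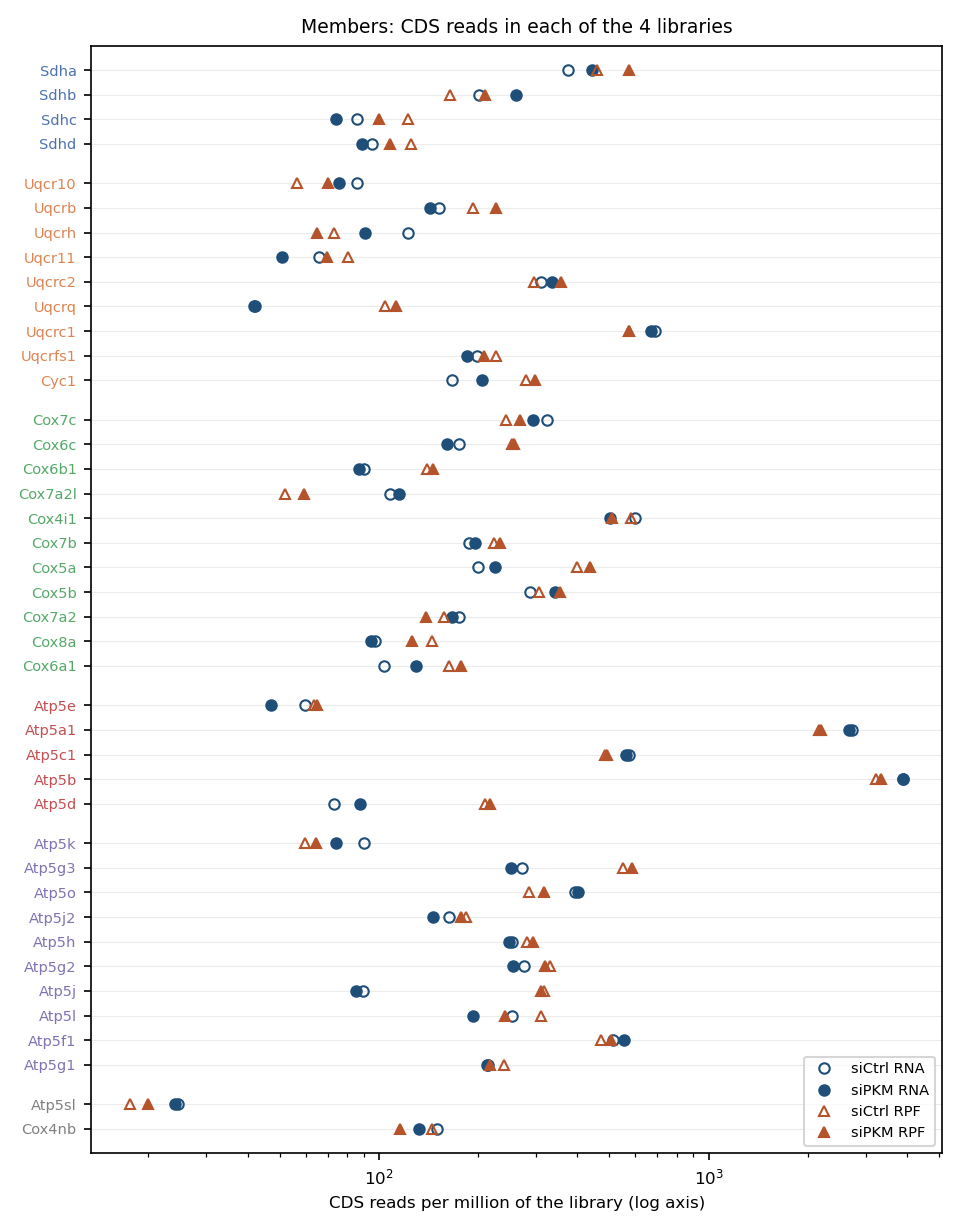
CDS read levels in CPM (log axis) for the 41 members in the 4 libraries, with RNA as circles, footprints as triangles, siCtrl open and siPKM filled, 1 library each and no error bars. Within a row the open and filled symbols of a kind lie close together, as for Atp5b, while rows are not to be ranked because the values are not divided by gene length.

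Many of these proteins are so short that the codons left out hold a sizeable share of their CDS footprints. The first 15 and last 5 codons held a median of 15.8% of the members' CDS footprints in siCtrl, against 5.50% over all genes, from 1.86% for Sdha to 47.4% for Uqcr11. With these codons counted, TE ratios were smaller for the 6 members that had been highest: 0.32 for Uqcr10, 0.30 for Atp5k, 0.28 for Atp5e, 0.27 for Uqcrb, 0.22 for Uqcrh and 0.17 for Cox7c. The 6 were picked by their values without these codons, so this comparison cannot show an effect of the codons. The members' median stayed at 0.08, with 30 of 41 above 0. Footprints in the first 15 codons made up 29.5% in siCtrl and 24.4% in siPKM of those on the Uqcr10 transcript, 24.2% in siCtrl and 20.8% in siPKM for Atp5k, and 23.7% in siCtrl and 20.2% in siPKM for Uqcrb. The shares were closer together in the other 3 of these genes, at 26.8% in siCtrl and 25.4% in siPKM for Atp5e, 27.6% in siCtrl and 27% in siPKM for Cox7c and 19.6% in siCtrl and 19.7% in siPKM for Uqcrh. Over the 41 members the TE ratio and the share of CDS footprints in both ends had a Pearson's r of 0.42 and a Spearman's rho of 0.36, and over all genes 0.22 and 0.25. Both measures use the siCtrl footprint library, and its part in this was not tested.

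Some of the short genes carried many footprints ahead of the start codon. In siCtrl, the 5′ UTR share of a transcript's footprints had a median of 2.06% over the members and 3.85% over all genes, yet it reached 31.4% for Uqcrh, whose 95% Clopper-Pearson interval was 29.5 to 33.3%. In siPKM the Uqcrh share was 27.8% (25.7 to 30.1), and its RNA share was 13.7% in siCtrl and 14.2% in siPKM. Uqcrq, a small subunit lying against cytochrome b, had footprint shares of 30% in siCtrl and 28% in siPKM and RNA shares of 19.5% in siCtrl and 17.6% in siPKM. In these 2 genes the footprint share was above the RNA share in both conditions, but this was not particular to them. Cox7b, given below, showed it too, and so did Atp5g3. Atp5g3 had footprint shares of 16.2% in siCtrl and 14.9% in siPKM and RNA shares of 11.8% in siCtrl and 12.4% in siPKM. For Cox7c the footprint shares were 24% in siCtrl and 22.4% in siPKM and the RNA shares 24.5% in siCtrl and 24.6% in siPKM, and for Cox7b 21.4% in siCtrl and 21.1% in siPKM and 18% in siCtrl and 17% in siPKM. Cox6a1 had 0% in RNA as well as in footprints, so its value is not a low footprint share as such. All these shares depend on the length of the annotated 5′ UTR, which was not at hand. The genes named in this paragraph were chosen after their values were seen. Reads that overlap the start codon may have been counted on either side, since the sources used here do not give the rule of assignment.

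**Figure D3:**
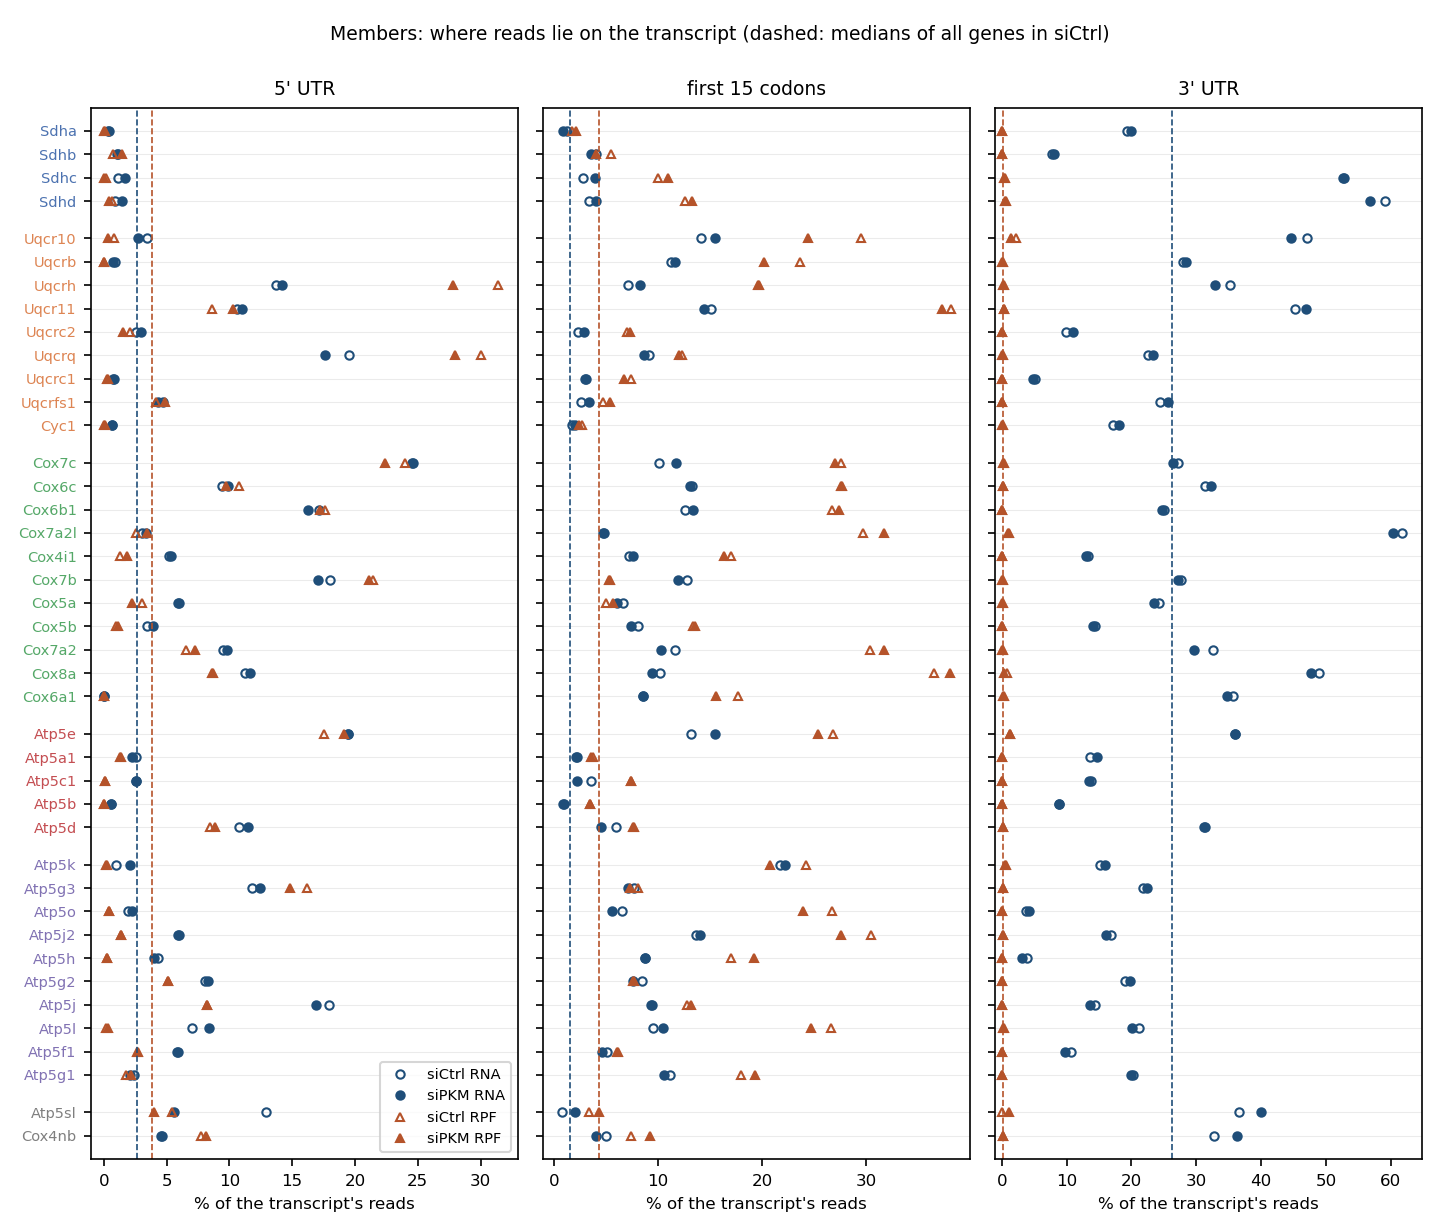
Share of each transcript's reads, in percent, that lay in the 5′ UTR, the first 15 codons and the 3′ UTR, for the 41 members in the 4 libraries (RNA circles, footprints triangles, siCtrl open, siPKM filled), with dashed lines at the medians of all genes in siCtrl. Uqcrh (31.4% in siCtrl) and Uqcrq stand out in 5′ UTR footprints, and 3′ UTR footprints are near 0% for all while RNA reads reach 61.7% for Cox7a2l.

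Footprints per message in the control cells, the baseline TE, is a ratio within a gene and can be compared between genes. Relative to the median gene, the members' median log2 was 0.34 in siCtrl and 0.42 in siPKM, with 29 of 41 above 0 in each. In siCtrl, 11 members (26.8%) were at least 1.5-fold above the median gene, against 20.1% of all genes. Only Cox7a2l, 2.44% of the members, was at least 1.5-fold below it, against 19.3%. With both CDS ends counted, Cox7a2l stood at -0.57 and 0 members were that far below. The highest values were those of Atp5j, the coupling factor of the stalk, at 2.00 (1.90 to 2.09), Atp5d at 1.70 (1.59 to 1.81), Uqcrq at 1.49 (1.35 to 1.64), Atp5g3 at 1.19 (1.13 to 1.25) and Cox5a at 1.17 (1.10 to 1.23). Atp5b and Atp5a1, which carry many reads, stood near the median gene at -0.09 and -0.16. Cox7a2l, a factor that joins complexes III and IV, was lowest at -0.88 (-1.01 to -0.76). After it came Uqcrh at -0.57 (-0.68 to -0.45).

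PKM2 crosslinks were counted as reverse transcription stops per transcript and set against the whole-transcript reads of siCtrl RNA. No CLIP library of another protein or of untagged cells is used here, so stops include the background of the method, and the RNA comes from untagged cells. The labels do not say whether the replicates came from separate cultures, so the SD over them may be technical. The members held 0.516% and 0.525% of all stops in the 2 replicates, against 1.38% of siCtrl RNA reads. Their median log2 ratio of stops over RNA was -1.39, while that of all genes was 0.08. At least 1.5-fold below the median gene were 29 members (70.7%), against 31.8% of all genes, and at least 1.5-fold above it 2 members (4.88%), against 35.3%. Over all genes, stops over RNA were lower at a higher RNA level (Spearman's rho -0.39). The members and all genes were not matched for RNA level, and its part in these shares was not tested.

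The members with the most stops were Atp5b, Atp5a1 and Cox4i1, each below 0 when set over RNA. Atp5b had 472 and 468 stops in the 2 replicates and a log2 ratio over RNA of -1.98 ± 0.00 (SD, n = 2). Atp5a1 had 354 and 393 stops and -1.94 ± 0.12 (SD, n = 2), and Cox4i1 had 280 and 279 and -0.33 ± 0.01 (SD, n = 2). The highest ratios over RNA were those of Uqcrq, with 98 and 86 stops and 1.17 ± 0.12 (SD, n = 2), Cox6a1, with 148 and 163 and 0.90 ± 0.11 (SD, n = 2), and Cyc1, with 137 and 120 and 0.52 ± 0.12 (SD, n = 2). Uqcrq and Cox6a1 were the 2 members at least 1.5-fold above the median gene. With siPKM RNA below the line, the ratio was 0.62 for Cox6a1 and 0.19 for Cyc1. By complex the medians were -0.99 for complex II, -1.36 for complex III, -1.04 for complex IV and -1.98 for complex V, all below that of all genes.

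Subunit c of the rotor ring is encoded by Atp5g1, Atp5g2 and Atp5g3, which make the same mature protein from different messages with different import sequences. The comparison was added after the values were seen. Atp5g3 had 186 and 170 stops, Atp5g1 5 and 6, and Atp5g2 4 and 1. CDS levels in siCtrl RNA, not divided by length, were 271, 213 and 276 CPM in the same order. Stops over RNA were thus -0.21 ± 0.08 (SD, n = 2) for Atp5g3, -4.60 ± 0.18 (SD, n = 2) for Atp5g1 and -5.98 ± 1.11 (SD, n = 2) for Atp5g2, and the counting intervals of -0.37 to -0.06, -5.73 to -3.89 and -7.86 to -5.02 place Atp5g3 above the other 2, whose intervals overlap. Baseline TE was likewise highest for Atp5g3, at 1.19 (1.13 to 1.25) against 0.34 (0.27 to 0.41) for Atp5g1 and 0.44 (0.38 to 0.50) for Atp5g2. TE ratios of siPKM over siCtrl were 0.22 (0.13 to 0.31), -0.11 (-0.22 to -0.01) and 0.08 (-0.01 to 0.18). Subunit c and many other short subunits have near-identical pseudogenes, and the sources used here do not say how reads with several matches were treated, so single values of such genes are uncertain.

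**Figure D4:**
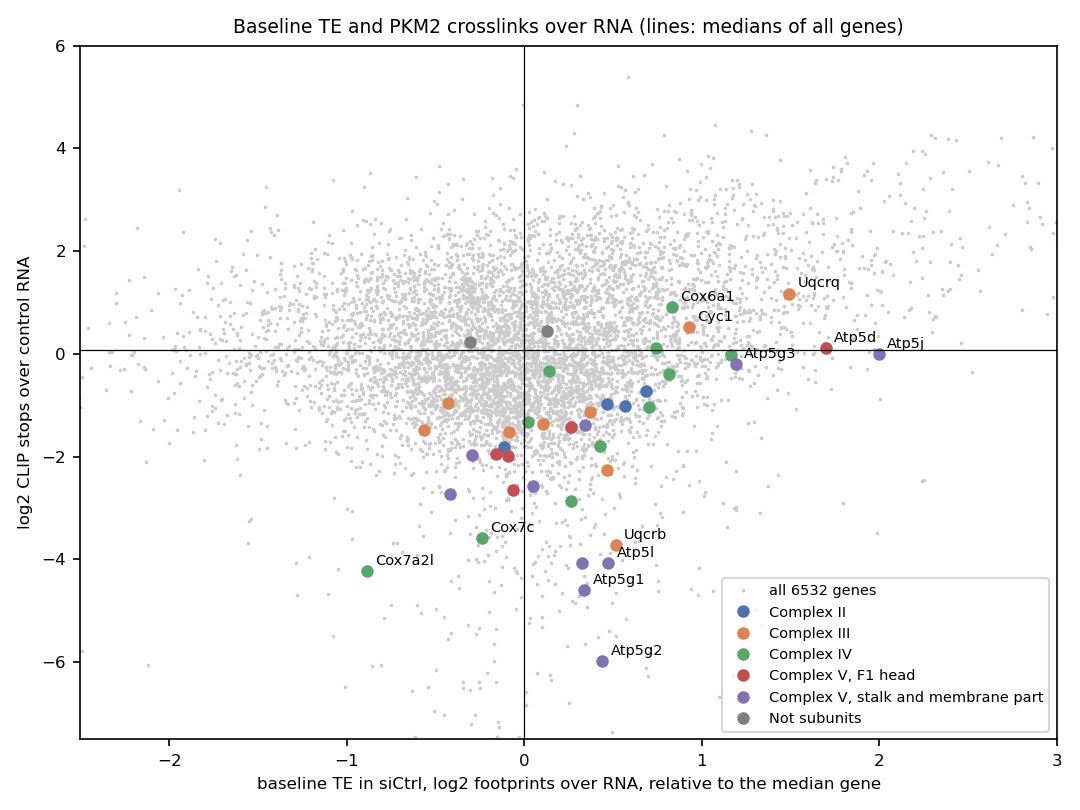
Log2 stops over control RNA (mean of 2 CLIP replicates) against baseline log2 TE in siCtrl, with the members coloured by complex, all 6532 genes in grey (43 lie outside the axes) and lines at the medians of all genes. Most members lie below the horizontal line, Atp5g2 lowest at -5.98, and the members with the highest stops over RNA, such as Uqcrq at 1.17, lie to the right.

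Baseline TE and stops over RNA were set side by side over the members. Pearson's r was 0.45 and Spearman's rho 0.49 over the 41 members, and 0.21 and 0.19 over all 6532 genes. Both ratios have siCtrl RNA reads below the line, and genes are not independent replicates. Stops over RNA and the RNA level itself had a Pearson's r of -0.14 and a Spearman's rho of -0.46 over the members, and -0.36 and -0.39 over all genes, with the RNA level in both terms.

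Other genes of the same pathway were taken from lists. Complex I feeds electrons from NADH into the chain. The 36 measured genes named for its subunits include Ndufa4, now known as a subunit of complex IV, which stood at -0.04 in RNA, 0.04 in footprints and 0.07 in TE. These 36 had medians of -0.04 in RNA, 0.07 in footprints and 0.09 in TE, with 29 of 36 above 0 in TE and 0 at least 1.5-fold apart in RNA, footprints or TE. Ndufb9 had a footprint ratio of 0.51 and Ndufc2 a TE ratio of 0.45, the highest among the genes of these related lists, which leave out the 41 members. Assembly factors (18 of 26 measured) stood at -0.08, -0.03 and 0.01. Among them were, for the related lists, the lowest RNA ratio, that of Taco1, a translational activator of a mitochondrially encoded oxidase subunit, at -0.44, and the lowest footprint ratio, that of Atpaf2, a chaperone of the F1 head, at -0.42. Cox10, which makes haem for complex IV, had the highest RNA ratio of the related lists, 0.53, and the lowest TE ratio, -0.63. It was the only gene of them at least 1.5-fold apart in RNA, footprints or TE. Electron carriers and enzymes of ubiquinone synthesis (13 of 15) had a median TE ratio of 0.03, partners of ATP synthase (8 of 9) one of 0.06, and nuclear regulators of respiratory genes (9 of 12) one of -0.19, with 3 of 9 above 0. Stops over RNA had a median of -0.99 in the complex I list, -1.80 in ATP synthase partners and 0.40 in the regulators.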

How the data were processed

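RNA-seq, ribosome footprint and iCLIP values of E14 cells were taken from the authors' single deposited table. Per the file headers, the authors deposited raw counts of reads per transcript region and raw counts of reverse transcription stops, and also log2 RPM, log2 TE and log2 CLIP enrichment, used here only as alternatives. Reads were processed with cutadapt and Bowtie2 on mm9, per the submitters' processing notes; the sources used here name no versions and do not state the handling of strand or of reads with several matches. Coordinates are printed only with RefSeq sequences of GRCm38.p6.

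Of 6535 rows, 3 with a repeated symbol were dropped; a floor of a mean of 64 CDS reads removed 0. Every gene kept had at least 151 CDS reads in each of the 4 libraries, so genes below that are not analysed here. CDS reads, leaving out 15 codons at the start and 5 at the end, plus 0.5, were scaled by the library's sum, and log2 ratios were centred on the median gene, which before centring was 0.05 in RNA, 0.02 in RPF and -0.02 in TE. A shift shared by all genes cannot be seen. Whole-transcript RNA and stops, plus 0.5, gave CLIP over RNA. With 1 library a group, no test was run. The 95% intervals (Clopper-Pearson for shares) come from read or stop counts and reflect counting error alone. Any PCR copies left among the deposited counts were not told apart here, so the intervals may be too narrow even for counting error. Genes 1.5-fold apart were counted beside all genes. Shown in full were, in each complex, the members with the highest and lowest RNA and TE ratio, any member 1.5-fold apart, and the 3 with most stops and the 3 with the highest stops over RNA; of related lists, the extremes. The members and lists were chosen with earlier results of these data known. The ratios were tested on simulated counts with known fold changes. Those counts held counting error only, as the intervals assume, with no spread between cultures and no PCR copies. This checks the calculation and not the error of these libraries. Python 3.11.15 with numpy 2.4.6, pandas 2.3.3 and SciPy 1.17.1 was used, and edgeR 4.0.16 (R 4.3.3) for TMM factors only. Alternatives were other scalings, 5 reads added, floors, the whole CDS, subunits only, the deposited log2 values, and for CLIP each replicate alone, 1 count added and another RNA library.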

Additional observations from a re-analysis of the deposited data

How the results depend on the processing

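No member reached 1.5-fold in RNA, footprints or TE under any alternative run, and the count with RNA below 0 and TE above 0 ranged from 20 to 26. The members' medians of RNA, footprint and TE ratios kept their sign under every alternative run. Of single-gene values, 542 held and 16 moved. The 542 include values that could not move, so this count does not measure how stable the values are. Without the floor, the largest shift of any member in RNA, footprints or TE was 0, because the floor had removed 0 genes. With subunits only it was 0 as well, because that choice leaves the ratio of a single gene unchanged. The median baseline TE in siCtrl was 0.18 with the authors' deposited values, which are not centred, and that in siPKM 0.31 over the whole CDS and 0.26 with the deposited values. Members at least 1.5-fold below the median gene in baseline TE were 0 over the whole CDS. With the deposited values 3 members were at least 1.5-fold below 0. Because those values are not centred, 0 is not the median gene there, and this count is not like the others. The median of stops over RNA was -1.20 with siPKM RNA below the line and -1.13 with the deposited enrichment, and 1 member was at least 1.5-fold above with siPKM RNA. With each CLIP replicate left out, that median ranged from -1.45 to -1.34, members below from 29 to 30 and members above stayed at 2. The cause was not tested. With the higher read floor, 5 of all genes were at least 1.5-fold higher in TE and 35 lower, against 12 and 54. No paired analysis was possible because each siRNA group had 1 library of a kind and the CLIP replicates have no second group. Differences of about the counting intervals printed were not detectable at this depth, and with 1 library a group the spread between cultures is unknown.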
